A study of Mus musculus with 6 samples.

Results

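Integrins and laminins were followed in epithelial cells taken from the mouse gastric corpus, the acid-secreting body of the stomach. The genes were chosen by symbol from a table of read counts per gene: 26 integrin chains and 10 laminin chains, 36 of 21526 symbols. All 36 symbols were found in the table. They were sorted by the cells that are known to make them into 9 epithelial chains, 7 chains made by epithelium and by other cells, 8 leukocyte chains and 12 stromal, vascular and platelet chains.

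The Yap-activated group held 3 libraries from tissue labelled Yap-activated gastric cancer, from mice of the genotype CluCreERT2;R26rtTA;HA-Yap+. The Normal group held 3 libraries of normal stomach from WT mice. Per the labels, both groups received 2 mg of tamoxifen daily for 5 days and then doxycycline food for 14 days, so neither agent distinguishes them. CreERT2 is a Cre recombinase made active by tamoxifen, here placed under the control of the Clu gene, and rtTA is a doxycycline-dependent activator at the Rosa26 locus. WT mice carried none of these alleles, so what CreERT2 or rtTA did by themselves and what Yap did cannot be told apart. EDTA was used to free the epithelium, which went uncultured into RNA extraction, and the labels do not say whether each library came from a separate mouse or from pooled mice. The p-values rest on library-to-library spread, part of which may be technical.

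Integrins are receptors made of 1 alpha and 1 beta chain that tie cells to the matrix beneath them or to other cells. Laminins are trimers of an alpha, a beta and a gamma chain that build the basement membrane on which epithelium rests. In simple epithelium the Itga6 and Itgb4 chains form the laminin receptor of hemidesmosomes, Itga3 with Itgb1 forms a second laminin receptor, and Itga2 with Itgb1 binds collagen. Yap is a transcriptional coactivator that acts through TEAD factors and is itself regulated by signals from cell adhesion.

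The libraries held 25580734 to 44295619 counts in Yap-activated tissue and 36815754 to 48440033 in Normal tissue. Levels are TMM-scaled CPM, in which each library's total is adjusted by a trimmed mean over genes, unless a value is said to be per kilobase. Of 7 tested markers of the corpus glands and surface, 6 fell, and Atp4a, the proton pump gene of parietal cells, had 22.5, 19.1 and 26.7 CPM in Yap-activated libraries, against 16000, 17200 and 21800 CPM in Normal libraries. Atp4b, the other proton pump chain, was at -9.86 and the pepsinogen gene Pgc at -9.37 on the log2 scale. The summed level of 6 epithelial markers was 10920 to 13010 CPM in Yap-activated and 4915 to 6268 CPM in Normal libraries, with the tight junction gene Cldn7 at a log2 fold change of 7.03, the adhesion molecule Epcam at 2.17, and the keratins Krt18 at 1.64 and Krt19 at 1.04. The summed level of 16 leukocyte markers was 860, 175 and 723 CPM in Yap-activated libraries and 134 to 144 CPM in Normal libraries. In Yap-activated replicate 1, S100a8 and S100a9 held 219 and 274 CPM of that sum, against 4.01 and 7.2 CPM in replicate 2. For 8 endothelial markers the sums were 38.7 to 66.9 CPM in Yap-activated and 177 to 191 CPM in Normal libraries, and for 8 fibroblast markers they were 388 to 642 CPM in Yap-activated and 845 to 1268 CPM in Normal libraries. The RNA came from all cells of a sample at once, so fewer cells of a type and less RNA per cell cannot be told apart.

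Of the 36 genes, 35 passed the filter on low counts, with 17 higher in Yap-activated tissue, 8 lower, and 10 short of the threshold (adjusted p under 0.05, edgeR quasi-likelihood test over 14600 genes). Over all genes tested 29.8% rose and 29.7% fell, 59.5% in all, so calls in both directions were common in this comparison. The median log2 fold change was 0.62 over the 35 genes and 0.01 over all genes tested. Of the 9 epithelial chains 8 rose, at a median of 1.61. Of 6 epithelial markers 5 rose, at a median of 1.345, and the part of a larger share of epithelium in the epithelial chains was not tested. Of the 12 stromal, vascular and platelet chains 6 fell and 2 rose, at a median of -0.41. The groups did not overlap at 25 of the 35 genes, 17 with the higher values in Yap-activated and 8 with the lower values there, against 67.6% of all genes. Scaling by library totals alone shifted the all-gene median by 0.49 on the log2 scale. Then 76.6% of all calls were higher against 50.0% with TMM, and 21 of the integrin and laminin genes were higher and 5 lower.

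**Figure D1:**
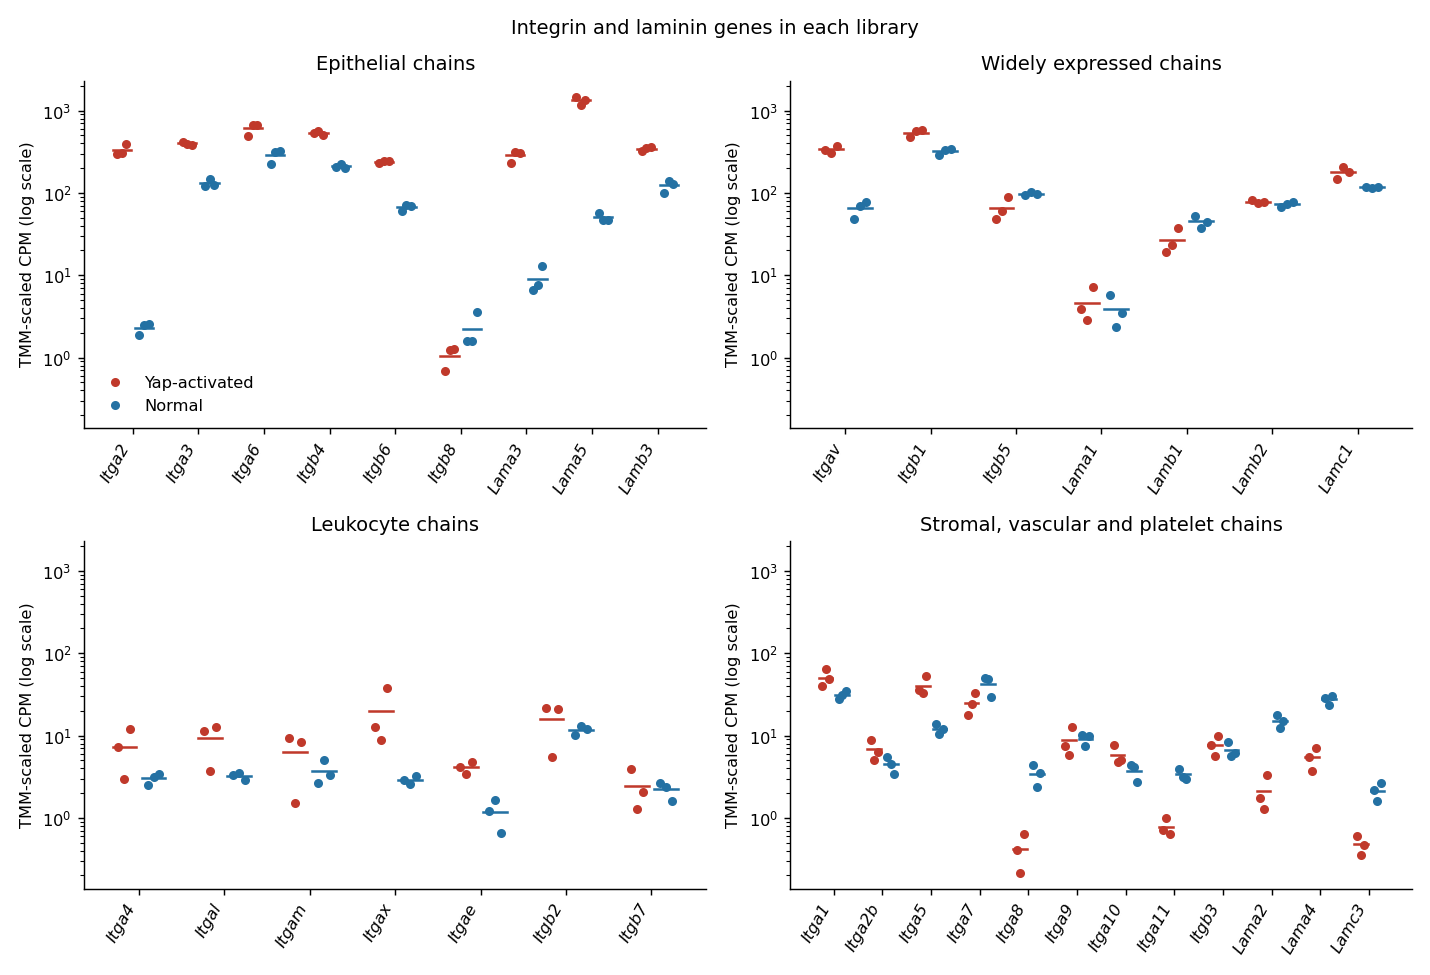
TMM-scaled CPM (log axis) of the 35 tested genes in 4 groups of chains. Each point is 1 library, red for Yap-activated and blue for Normal, and the bar is the mean of 3; Itga2, Lama3 and Lama5 show the widest gaps between the groups, and Lama2, Lama4 and Itga8 lie lower in Yap-activated.

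The epithelial chain with the largest rise was Itga2, the collagen-binding alpha chain. It had 298, 304 and 390 CPM in Yap-activated libraries, against 1.89, 2.49 and 2.53 CPM in Normal libraries. In raw reads that was 8787, 12750 and 20960 in Yap-activated libraries and 65, 105 and 80 in Normal libraries, so the Normal level was low but counted in every library. The rise was 7.16 on the log2 scale (SE 0.20, adjusted p = 3.81e-07), or 143-fold, and ranked 55 from the top among 14600 genes. Itga1, the other collagen-binding chain beside it, lies 20995 bp away on the same strand of chromosome 13. Itga1 had 39.5, 63.7 and 48.6 CPM in Yap-activated libraries and 27.7, 30.7 and 34.8 CPM in Normal libraries, and rose by 0.71 on the log2 scale (SE 0.18, adjusted p = 0.0107). Reads of a gene that overlaps Itga1 on the same strand in GENCODE cannot be told apart from its own.

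Both laminin alpha chains of epithelium rose strongly. Lama5, the main laminin alpha chain under mature simple epithelium, had 1470, 1160 and 1360 CPM in Yap-activated libraries and 57.5, 47.3 and 47.2 CPM in Normal libraries. That is a log2 fold change of 4.71 (SE 0.18, adjusted p = 1.21e-06), a 26.2-fold rise. Lama3, the alpha chain of the laminin that anchors hemidesmosomes, had 234, 318 and 304 CPM in Yap-activated libraries and 6.61, 7.56 and 13.0 CPM in Normal libraries, a log2 fold change of 4.98 (SE 0.30, adjusted p = 1.31e-05). Lama3 and Lama5 ranked 196 and 224 from the top, within the 2.21% of genes that rose by more than 4 on the log2 scale. Reads of a gene on the opposite strand that overlaps 197 bp of Lama3 cannot be separated, because the sources used here do not state how strand was treated in counting; the same holds for each opposite-strand overlap named here. Lamb3, the beta chain that pairs with Lama3, had 324, 353 and 359 CPM in Yap-activated libraries and 98.8, 141 and 130 CPM in Normal libraries, and rose by 1.49 (SE 0.15, adjusted p = 1.08e-04). Per kilobase, Lamb3 stood at 2.25, 1.80 and 1.92 times Lama3 in Yap-activated libraries, against 24.3, 30.3 and 16.2 times in Normal libraries (exact permutation p = 0.1, two-sided, the smallest that 3 against 3 can give).

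The integrin receptors for laminin rose by smaller amounts. Itga3 had 416, 395 and 385 CPM in Yap-activated libraries and 121, 146 and 124 CPM in Normal libraries, with a log2 fold change of 1.61 (SE 0.12, adjusted p = 2.31e-05). Itgb4, the hemidesmosomal beta chain, had 529, 568 and 511 CPM in Yap-activated libraries and 206, 227 and 201 CPM in Normal libraries, with a log2 fold change of 1.34 (SE 0.12). A gene on the opposite strand overlaps 537 bp of Itgb4. Itga6, its only partner among alpha chains, had 497, 673 and 662 CPM in Yap-activated libraries and 224, 310 and 322 CPM in Normal libraries, with a log2 fold change of 1.10 (SE 0.19, adjusted p = 0.00159). The groups did not overlap at any of these 3 genes. Per kilobase the ratio of Itga6 to Itgb4 was 0.731, 0.920 and 1.01 in Yap-activated libraries and 0.845, 1.06 and 1.24 in Normal libraries, with a difference in mean log2 ratio of -0.24 (exact permutation p = 0.4, two-sided). The groups overlap in this ratio.

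Itgb6 and Itgb8 encode beta chains that pair with Itgav and can activate latent TGF-beta. Itgb6 had 234, 241 and 241 CPM in Yap-activated libraries and 59.7, 71.0 and 70.2 CPM in Normal libraries, and rose by 1.83 (SE 0.11, adjusted p = 8.09e-06). Itgb8 was low in all 6 libraries, with 0.678, 1.22 and 1.28 CPM in Yap-activated and 1.57, 1.57 and 3.57 CPM in Normal. Its log2 fold change of -1.06 (SE 0.44) did not pass (adjusted p = 0.067), although the groups did not overlap. It was the 1 epithelial chain that did not rise. The 8 calls among epithelial chains held in all alternatives run except the test against a 2-fold change, where 7 of the 8 passed and Itga6 did not (adjusted p = 0.412).

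**Figure D2:**
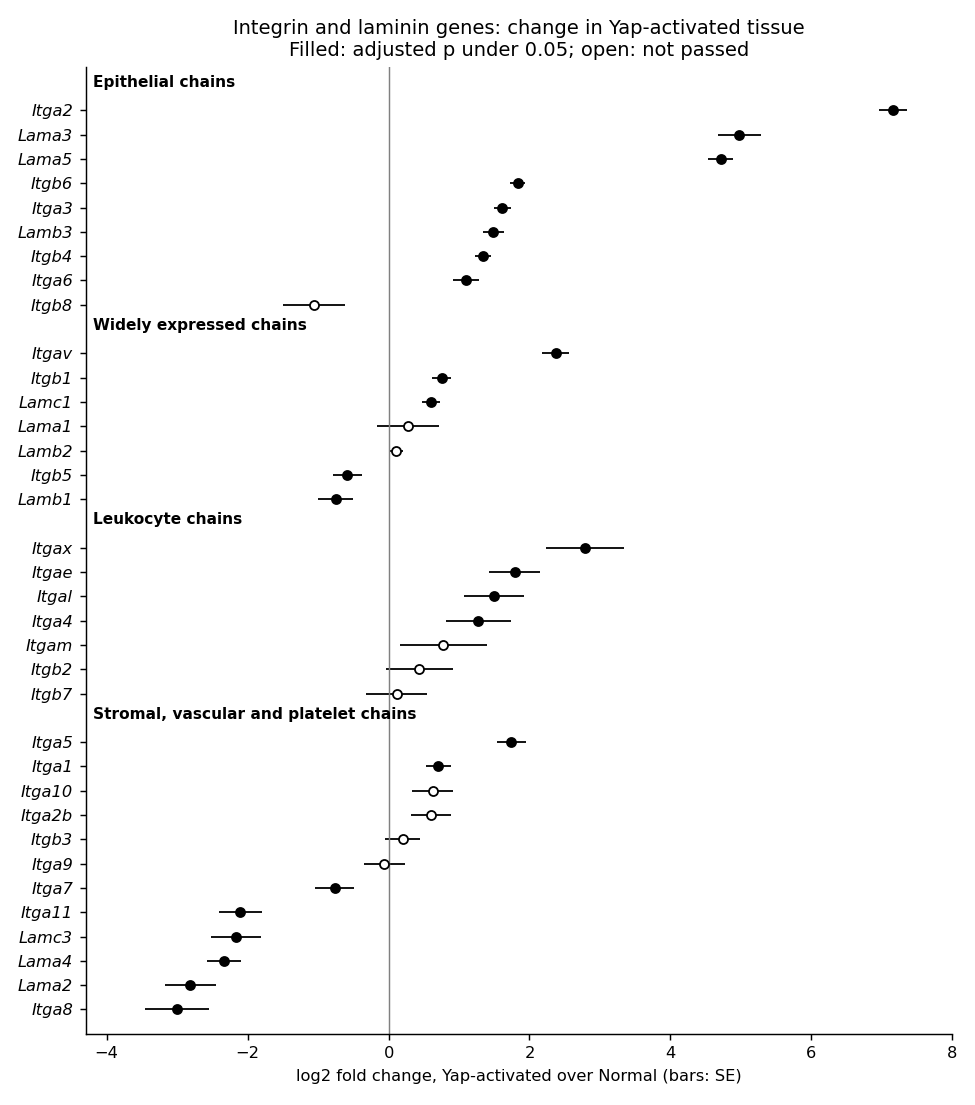
Log2 fold change of Yap-activated over Normal (x axis, bars are SE) for the 35 tested genes, sorted within 4 groups of chains; filled points passed adjusted p under 0.05. Epithelial chains other than Itgb8 lie right of 0, up to 7.16 for Itga2, and Lama2, Lama4, Lamc3, Itga8 and Itga11 lie left of -2.

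The promoters of the chains were read for the letters bound by TEAD factors and by AP-1, a factor family that often acts beside them. RefSeq's promoter table (GRCm38.p6) held 26 start sites of 23 of the 36 genes, and the 250 bases before each start were searched on both strands. The letters GGAATG, the core that TEAD factors bind, were found at 3 of the 26 starts, or 11.5%, against 12.6% of 32851 starts of all genes. They were in Itga10, Itgb1 and Lamb3. The AP-1 letters TGANTCA were found at 1 start, of Itgax, or 3.85%, against 6.75% of all starts. The windows of Itga2 (chr13:114932101-114932350, minus strand) and Lama5 (chr2:180225860-180226109, minus strand) are shown because these genes rose strongly, and they hold neither run of letters. The window of Itgax (chr7:128129300-128129549, plus strand) is shown because Itgax had the largest rise of the leukocyte chains, and its capitals mark the AP-1 letters that begin 56 bases before the start site. Each is written 5′ to 3′ on the gene's strand.
Itga2: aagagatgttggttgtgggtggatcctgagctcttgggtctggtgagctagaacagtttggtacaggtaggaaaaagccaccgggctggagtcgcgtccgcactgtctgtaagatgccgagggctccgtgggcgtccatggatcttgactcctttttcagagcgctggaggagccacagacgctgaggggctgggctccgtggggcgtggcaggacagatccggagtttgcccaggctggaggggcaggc
Lama5: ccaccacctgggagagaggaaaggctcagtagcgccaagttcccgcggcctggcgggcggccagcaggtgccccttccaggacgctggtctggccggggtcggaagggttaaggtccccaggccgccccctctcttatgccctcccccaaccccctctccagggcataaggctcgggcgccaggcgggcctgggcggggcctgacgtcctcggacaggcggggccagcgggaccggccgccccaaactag
Itgax: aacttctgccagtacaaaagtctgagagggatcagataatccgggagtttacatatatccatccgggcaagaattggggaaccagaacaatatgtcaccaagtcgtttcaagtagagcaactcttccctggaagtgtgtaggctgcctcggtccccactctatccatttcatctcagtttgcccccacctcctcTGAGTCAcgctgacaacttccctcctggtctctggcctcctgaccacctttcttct
A match is a run of letters and not a measured site, and distant regulatory regions were not searched.

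Among the 7 chains made by epithelium and by other cells, 3 rose and 2 fell, or 42.9% and 28.6%. Over all genes tested 29.8% rose and 29.7% fell. Itgav, the alpha chain shared by the RGD-binding integrins, had 335, 304 and 376 CPM in Yap-activated libraries, against 48.4, 69.6 and 78.2 CPM in Normal libraries, and rose by 2.37 (SE 0.19, adjusted p = 3.61e-05). Itgb1, the most widely shared beta chain, had 472, 564 and 585 CPM in Yap-activated libraries and 289, 332 and 338 CPM in Normal libraries, a log2 fold change of 0.76 (SE 0.14, adjusted p = 0.00198). Lamc1, the common laminin gamma chain, had 148, 205 and 182 CPM in Yap-activated libraries and 118, 116 and 118 CPM in Normal libraries, a log2 fold change of 0.60 (SE 0.13, adjusted p = 0.00514). All 3 were higher in 3 of 3 Yap-activated libraries than in any Normal library. Itgav overlaps 634 bp of a gene on the opposite strand.

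Itgb5, another partner of Itgav and a receptor for vitronectin, went the other way. It had 47.9, 59.9 and 88.0 CPM in Yap-activated libraries and 94.5, 103 and 97.6 CPM in Normal libraries, a log2 fold change of -0.59 (SE 0.21, adjusted p = 0.0394). Lamb1, a laminin beta chain of many basement membranes, had 19.4, 23.2 and 37.3 CPM in Yap-activated libraries and 53.0, 37.7 and 44.3 CPM in Normal libraries, a log2 fold change of -0.75 (SE 0.25, adjusted p = 0.0357). Both are near the threshold. Leaving out Yap-activated replicate 1 ended the Itgb5 call (adjusted p = 0.0704), as did leaving out Yap-activated replicate 2 (0.1), Normal replicate 1 (0.0791), Normal replicate 2 (0.103) or Normal replicate 3 (0.0932), and its adjusted p ran from 0.0016 to 0.737 over 14 alternatives, highest with library totals alone. Leaving out Yap-activated replicate 1 ended the Lamb1 call (0.0738), as did leaving out Yap-activated replicate 2 (0.0949), Normal replicate 1 (0.109) or Normal replicate 3 (0.083), and its adjusted p ran from 0.00208 to 0.417. Lamb2, a laminin beta chain of vessels, muscle and kidney, had 82.0, 74.4 and 77.8 CPM in Yap-activated libraries and 66.7, 74.2 and 77.1 CPM in Normal libraries, at 0.10 (adjusted p = 0.383). With library totals alone Lamb2 was at 0.59 and passed (adjusted p = 0.00219). Lama1, an alpha chain best known from embryonic basement membranes, had 2.86 to 7.16 CPM in Yap-activated and 2.33 to 5.77 CPM in Normal libraries and did not pass (0.27, adjusted p = 0.612). The groups overlapped at Lamb2 and Lama1.

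Within each family the make-up of the chains was compared as shares of counts per kilobase of merged exons, which do not depend on the scaling between libraries. Lama5 made up 85.0%, 77.1% and 80.0% of laminin alpha transcripts in Yap-activated libraries, against 52.1%, 53.1% and 45.2% in Normal libraries. Lama3 had 18.6% ± 4.03 in Yap-activated and 9.52% ± 3.46 in Normal libraries (SD, n = 3 each; exact permutation p = 0.1). Lama4 and Lama2, alpha chains of vessels and muscle, had 0.309% ± 0.0783 and 0.0887% ± 0.0417 in Yap-activated libraries, against 25.7% ± 1.74 and 10.3% ± 0.841 in Normal libraries (SD, n = 3 each). Almost all laminin alpha transcripts in Yap-activated tissue were therefore of the epithelial chains. The Normal order depends on how length is counted: over the longest transcript Lama5 had 80.1% in Yap-activated tissue and 37.7% in Normal tissue, where Lama4 had 38.5%. Among the laminin beta chains Lamb3 had 76.0%, 78.6% and 76.7% in Yap-activated and 47.8%, 57.1% and 53.4% in Normal libraries.

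Among integrin alpha chains, Itga2 had 18.6%, 18.2% and 20.6% of transcripts in Yap-activated libraries and 0.391%, 0.423% and 0.451% in Normal libraries. Itga6 had 24.5%, 31.8% and 27.7% in Yap-activated and 36.5%, 41.6% and 45.3% in Normal libraries, a lower share although its level rose. Itga3 had 29.1% ± 3.53 in Yap-activated and 29.9% ± 1.94 in Normal libraries (SD, n = 3 each; exact permutation p = 0.7), and over the longest transcript its difference had the other sign. The order of Itga3 and Itga6 in Yap-activated tissue depends on how length is counted: their shares overlapped over merged exons, and over the longest transcript Itga6 had 40.1% and Itga3 23.4%. Among beta chains Itgb1 had the highest share, with 49.3% ± 2.13 in Yap-activated and 51.7% ± 1.70 in Normal libraries (SD, n = 3 each; exact permutation p = 0.3). Itgb4 and Itgb6 had larger shares, 28.6% ± 2.59 and 12.5% ± 0.698 in Yap-activated libraries, against 19.9% ± 1.19 and 6.21% ± 0.219 in Normal libraries, and Itgb5 a smaller one, 6.78% ± 1.72 in Yap-activated and 18.3% ± 0.562 in Normal libraries (SD, n = 3 each). The exact permutation p of each of these 3 was 0.1, as for all share differences in which the groups did not overlap. Per kilobase, Itgav stood at 2.31, 1.68 and 1.41 times Itgb5 in Yap-activated libraries, against 0.169, 0.224 and 0.265 times in Normal libraries.

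**Figure D3:**
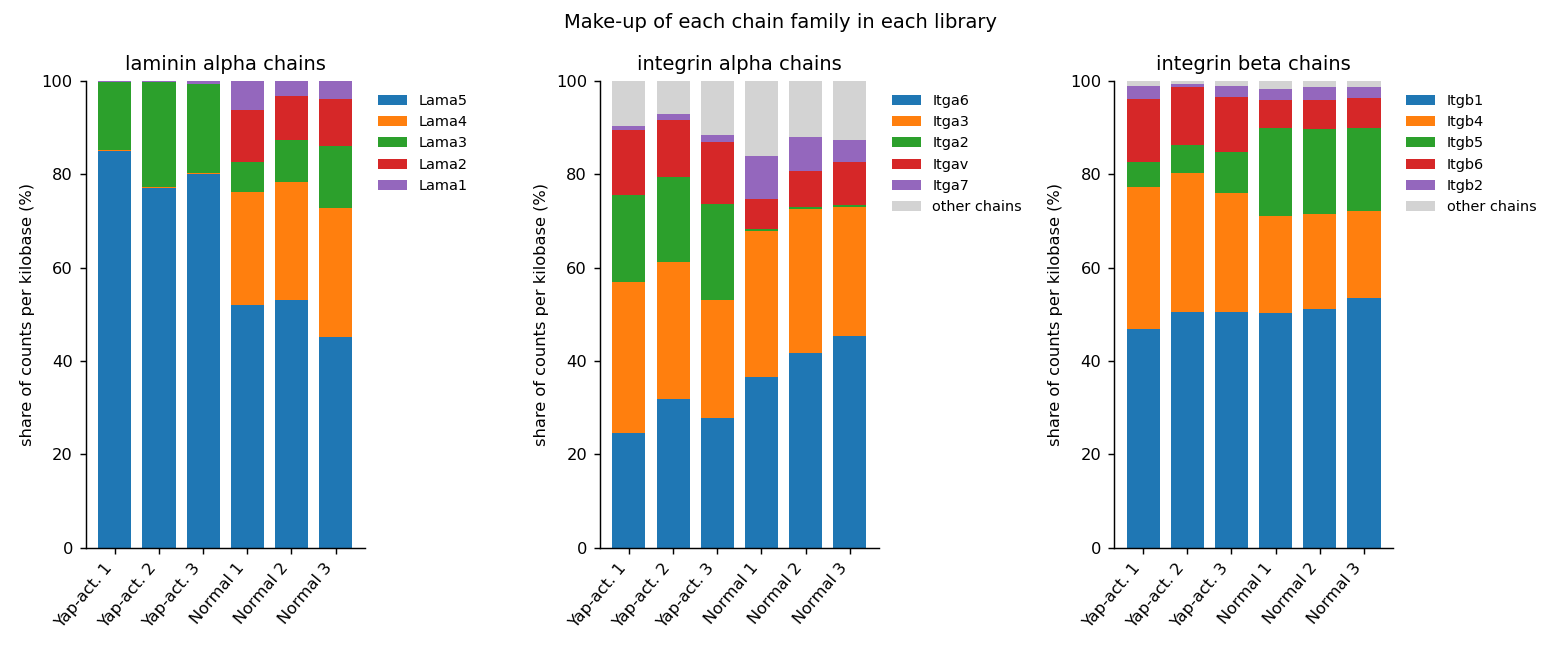
Share (%) of counts per kilobase of merged exons held by each chain among laminin alpha, integrin alpha and integrin beta chains, 1 bar per library, with Yap-activated libraries left of Normal ones; the integrin panels draw the 5 chains with the highest share and pool the rest. Lama5 with Lama3 fills nearly the whole Yap-activated laminin bar, and Itga2 is visible in Yap-activated bars only, at 18.2% to 20.6%.

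Leukocyte chains rose in part, and unevenly between libraries. Of 8 chains 7 could be tested, and 4 rose and 3 did not pass, at a median log2 fold change of 1.27. That is 57.1% higher and 0% lower, against 29.8% and 29.7% over all genes tested. Itgax, the alpha chain that marks dendritic cells and some macrophages, had 12.7, 8.87 and 37.9 CPM in Yap-activated libraries and 2.85, 2.61 and 3.19 CPM in Normal libraries, a log2 fold change of 2.78 (SE 0.56, adjusted p = 0.00453). Without Yap-activated replicate 3 it was at 1.91 and still passed (adjusted p = 4.7e-04). Itgae, the alpha chain of intraepithelial lymphocytes that binds E-cadherin, had 4.17, 3.41 and 4.78 CPM in Yap-activated libraries and 1.22, 1.66 and 0.664 CPM in Normal libraries, a log2 fold change of 1.79 (SE 0.36, adjusted p = 0.00357). Its beta partner Itgb7 had 3.90, 1.29 and 2.08 CPM in Yap-activated and 2.68, 2.38 and 1.61 CPM in Normal libraries and did not pass (0.11, adjusted p = 0.836). The groups overlapped at Itgb7 and not at Itgae. Per kilobase, the ratio of Itgae to Itgb7 was 0.647, 1.60 and 1.39 in Yap-activated libraries and 0.276, 0.423 and 0.249 in Normal libraries (exact permutation p = 0.1, two-sided).

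Itgal and Itga4, chains that lymphocytes and monocytes use to leave vessels, passed more narrowly. Itgal had 11.4, 3.70 and 12.7 CPM in Yap-activated and 3.35, 3.56 and 2.91 CPM in Normal libraries, a log2 fold change of 1.5 (SE 0.43, adjusted p = 0.0185), and Itga4 had 7.22, 2.98 and 11.9 CPM in Yap-activated and 2.53, 3.16 and 3.45 CPM in Normal libraries, at 1.27 (SE 0.46, adjusted p = 0.044). In both, Yap-activated replicate 2 lay near the Normal level. Leaving out Yap-activated replicate 3 ended the Itgal call (adjusted p = 0.0531), as did leaving out Normal replicate 1 (0.0606), Normal replicate 2 (0.053) or Normal replicate 3 (0.0722), and voom did so too (0.0726), over a range of 1.75e-04 to 0.0726. The Itga4 call did not hold without Yap-activated replicate 1 (0.0736), Yap-activated replicate 3 (0.137), Normal replicate 1 (0.135), Normal replicate 2 (0.108) or Normal replicate 3 (0.0958) and with voom (0.12), over a range of 0.00175 to 0.137. Itga4 also overlaps 1124 bp of a protein-coding gene on the opposite strand.

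Itgb2, the beta chain shared by Itgal, Itgam and Itgax, had 21.4, 5.44 and 20.8 CPM in Yap-activated libraries and 10.1, 13.1 and 11.9 CPM in Normal libraries and did not pass (0.44, SE 0.47, adjusted p = 0.454). Itgam, the alpha chain of neutrophils and macrophages, had 9.22, 1.53 and 8.37 CPM in Yap-activated and 2.65, 5.11 and 3.35 CPM in Normal libraries and did not pass either (0.78, adjusted p = 0.314). In both, Yap-activated replicates 1 and 3 lay above all Normal libraries and replicate 2 below them. Without Yap-activated replicate 2 both passed, Itgb2 at 0.84 (adjusted p = 0.00291) and Itgam at 1.24 (adjusted p = 0.00829), and 6 leukocyte chains were then called higher. Part of the Itgam exons is shared with another annotated gene on the same strand. Itgad, which lies 3718 bp from Itgax on chromosome 7, had 2, 2 and 6 reads in Yap-activated and 1, 0 and 0 reads in Normal libraries, and was not tested.

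The leukocyte markers followed these chains only in part. The summed level of the markers was 860, 175 and 723 CPM in Yap-activated replicates 1, 2 and 3. Of these 3 libraries, replicate 2 was also lowest for Itgb2, Itgam, Itgal and Itga4. Its sum lay above the 134 to 144 CPM of Normal libraries, whereas its Itgb2 and Itgam values lay below all Normal libraries. The sum was highest in replicate 1, whereas Itgax, Itgal and Itga4 were highest in replicate 3. S100a8 and S100a9, picked after their values were seen, weighed heavily in the sum of replicate 1. S100a8 had 219, 4.01 and 55.8 CPM and S100a9 274, 7.2 and 81.6 CPM in Yap-activated replicates 1, 2 and 3. Of 16 markers 14 could be tested and 9 rose, or 64.3%, against 29.8% over all genes tested. With voom 5 were called higher, against a 2-fold change 4, and with no filter or without any 1 Normal library 6. Among the 9 were Csf3r, the G-CSF receptor of neutrophils, at 3.92, Spi1, a myeloid transcription factor, at 2.10, and Cd68 of macrophages at 1.45. Adgre1, a further macrophage marker picked after its values were seen, did not pass (0.07, adjusted p = 0.922). It had 3.83, 2.31 and 13 CPM in Yap-activated and 5.97, 6.2 and 6.13 CPM in Normal libraries. Lyz2, the marker with the highest mean CPM, had 193, 81.1 and 272 CPM in Yap-activated and 77.6, 74.9 and 76.4 CPM in Normal libraries, a log2 fold change of 1.25 (adjusted p = 0.0282). Its call did not hold without a filter on low counts (0.0505), or without Yap-activated replicate 1 (0.0526), Yap-activated replicate 3 (0.0735), Normal replicate 1 (0.0732), Normal replicate 2 (0.0826) or Normal replicate 3 (0.0881). Ptprc, the common leukocyte antigen, which was picked after its values were seen, had 33.3, 14.3 and 60.1 CPM in Yap-activated and 10.3, 9.46 and 10.2 CPM in Normal libraries. Ms4a1 and Cd3e, defining markers of B and T cells also picked after their values were seen, were near 0, with Ms4a1 at 0.0477 to 0.271 CPM in Yap-activated and 0.0950 to 0.291 CPM in Normal libraries, and Cd3e at 0.119 to 1.08 CPM in Yap-activated and 0.309 to 0.641 CPM in Normal libraries. The part of leukocyte number in the leukocyte chains was not tested.

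**Figure D4:**
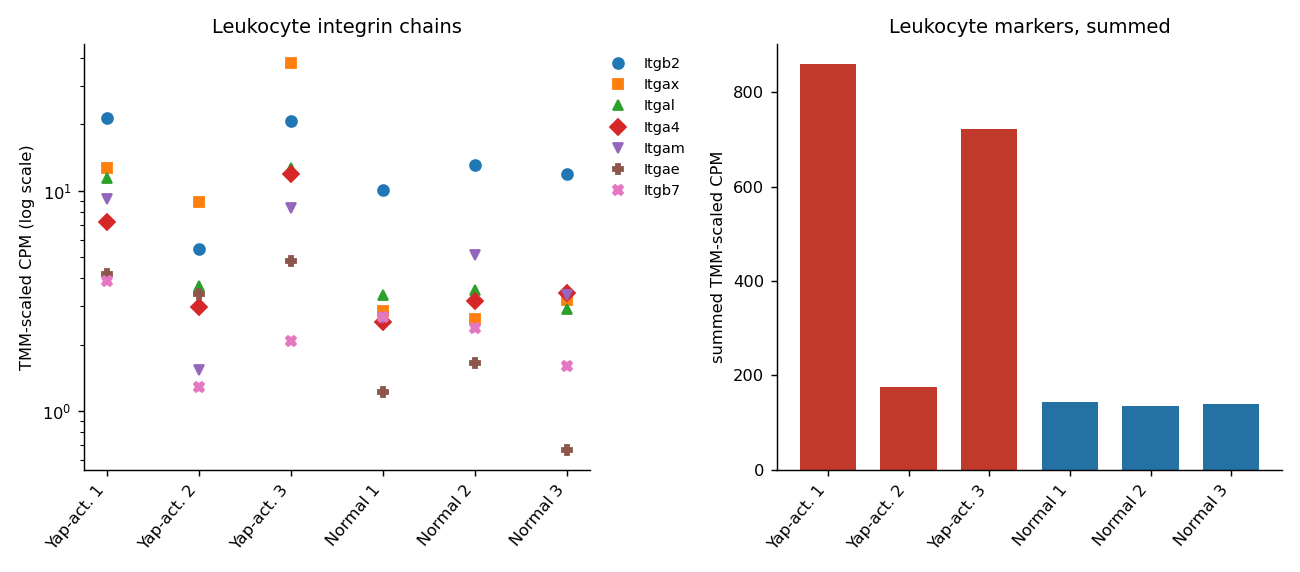
Left, TMM-scaled CPM (log axis) of the 7 tested leukocyte chains in each library; right, the summed TMM-scaled CPM of 16 leukocyte markers in each library, red for Yap-activated and blue for Normal. Yap-activated replicate 2, at 175 CPM of markers, lies above the Normal libraries in the sum but has the lowest Itgb2 and Itgam values. S100a8 and S100a9 hold 219 and 274 CPM of the sum in Yap-activated replicate 1.

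Of the 12 stromal, vascular and platelet chains 6 fell, 2 rose and 4 did not pass. That is 50% lower and 16.7% higher, against 29.7% and 29.8% over all genes tested. Lama2, the laminin alpha chain of muscle and mesenchymal basement membranes, had 1.73, 1.29 and 3.33 CPM in Yap-activated libraries and 17.8, 12.2 and 15.2 CPM in Normal libraries, a log2 fold change of -2.82 (SE 0.36, adjusted p = 3.73e-04). Lama4, the laminin alpha chain of vessels, had 5.52, 3.75 and 7.05 CPM in Yap-activated libraries and 28.3, 23.8 and 30.5 CPM in Normal libraries, a log2 fold change of -2.34 (SE 0.24, adjusted p = 1.04e-04). Lamc3, a sparsely expressed laminin gamma chain, fell by 2.17 on the log2 scale (SE 0.35, adjusted p = 0.00123), with 0.610, 0.358 and 0.465 CPM in Yap-activated and 2.18, 1.59 and 2.66 CPM in Normal libraries. The groups did not overlap at these 3 laminin genes. Lama2 and Lamc3 overlap genes on the opposite strand, by 631 and 382 bp.

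Among integrin chains of mesenchymal cells, Itga8, found on smooth muscle and fibroblasts, had 0.407, 0.215 and 0.632 CPM in Yap-activated libraries and 4.4, 2.38 and 3.48 CPM in Normal libraries. It fell by 3 on the log2 scale (SE 0.45, adjusted p = 8.09e-04), and 372 bp of it overlap a gene on the opposite strand. Itga11, a collagen receptor of fibroblasts, had 0.712, 1 and 0.632 CPM in Yap-activated libraries and 3.96, 3.16 and 3 CPM in Normal libraries, and fell by 2.11 (SE 0.30, adjusted p = 6.52e-04). The groups did not overlap at either gene. Itga7, the laminin receptor of muscle, had 17.8, 24.4 and 32.8 CPM in Yap-activated libraries and 50.4, 48.3 and 29.1 CPM in Normal libraries, and the groups overlapped. Its call at -0.77 (SE 0.28, adjusted p = 0.0467) was lost without Yap-activated replicate 1 (0.104), Yap-activated replicate 2 (0.102), Normal replicate 1 (0.138) or Normal replicate 2 (0.134), over a range of 0.0133 to 0.438.

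Itga5, the fibronectin receptor chain that fibroblasts, endothelium and spreading epithelium use, was higher. It had 36.0, 32.6 and 52.7 CPM in Yap-activated libraries and 13.7, 10.6 and 12 CPM in Normal libraries, a log2 fold change of 1.74 (SE 0.20, adjusted p = 2.06e-04), with no overlap. Itga1 rose too, as given above with Itga2. Itga9, which binds tenascin, had 5.89 to 12.8 CPM in Yap-activated and 7.41 to 10.2 CPM in Normal libraries, and Itgb3, of platelets and vessels, had 5.65 to 9.82 CPM in Yap-activated and 5.70 to 8.33 CPM in Normal libraries. Neither passed (-0.06, adjusted p = 0.872, and 0.20, adjusted p = 0.529). Itga10, a collagen receptor of cartilage, at 0.62 (adjusted p = 0.0918), and Itga2b, the platelet alpha chain, at 0.60 (adjusted p = 0.0966), did not pass. Itga2b passed without Yap-activated replicate 2 (0.76, adjusted p = 0.0428), and with library totals alone Itga2b (1.10), Itga10 (1.12) and Itgb3 (0.70) passed as higher. Itga10 shares exons with another annotated gene on its strand.

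Markers of the cells that make these chains were counted beside them. The counts stand against 29.8% higher and 29.7% lower over all genes tested. Of 8 endothelial markers 7 fell, with Kdr, the VEGF receptor, at -2.45, Plvap at -2.37 and Emcn at -1.49. Of 8 fibroblast markers 4 fell and 4 did not pass, with Col3a1 at -1.68, Col1a2 at -1.58 and Lum at -1.95 among those that fell, and Pdgfra at 0.25 and Dcn at 0.20, both picked after their values were seen, among those that did not pass. Of 6 smooth muscle markers 3 fell and 3 did not pass, with Lmod1 at -1.54, Myh11 at -1.17 and Acta2 at -0.91 among those that fell. The other 3, picked after their values were seen, were Des at 0.71, Cnn1 at 0.26 and Tagln at 0.13. With library totals alone, and without Normal replicate 3, 1 muscle marker was higher and 1 lower. The Myh11 call (adjusted p = 0.0371) was lost without Yap-activated replicate 1 (0.0897), Yap-activated replicate 2 (0.0757), Normal replicate 1 (0.0735), Normal replicate 2 (0.0511) or Normal replicate 3 (0.119), and the Acta2 call without Normal replicate 3 (0.0616). With library totals alone neither passed (0.17 and 0.201). Of 6 platelet markers 3 could be tested, of which Ppbp rose by 5.99 with 28.4, 7.11 and 9 CPM in Yap-activated and 0.291, 0.261 and 0.126 CPM in Normal libraries, while Pf4 at 0.12 and Gp1ba at -0.39 did not pass. The part of these cells in the falls of the stromal chains was not tested.

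Genes that work with integrins and laminins were described from lists. Each count is to be read beside all genes tested, of which 29.8% rose and 29.7% fell. Of 21 tested activators, adaptors and kinases of integrins 9 rose and 3 fell, or 42.9% and 14.3%, at a median log2 fold change of 0.42. Actn1, an actin crosslinker of adhesion sites, had 568, 435 and 494 CPM in Yap-activated and 68.8, 87.0 and 78.2 CPM in Normal libraries, a log2 fold change of 2.68 (SE 0.15). Flna, another actin crosslinker that binds beta chains, rose by 1.85 (SE 0.16). Tln2 fell by 2.77 (SE 0.13), with 8.30, 8.64 and 6.81 CPM in Yap-activated and 56.9, 53.9 and 51.5 CPM in Normal libraries. Its paralog Tln1, picked after its values were seen, is the talin that activates integrins in most cells and rose by 0.64. Actn4, the gene of the list with the highest mean CPM, was at 0.12 and did not pass (adjusted p = 0.474), but was at 0.61 and passed with library totals alone (adjusted p = 0.00892). With library totals alone 16 genes of this list were higher. Ilk, which encodes a kinase-like adaptor, was under 1 CPM in every library and was not tested. The sources used here do not state how reads in overlapping genes were counted, so the values near 0 of Ilk, and of Tagln among the muscle markers, cannot be read as low expression.

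Of 5 partners of hemidesmosomes and of laminin-binding integrins 3 rose, 1 fell and 1 did not pass. Cd9, a tetraspanin, had 587, 510 and 485 CPM in Yap-activated and 98.6, 101 and 79.4 CPM in Normal libraries, a log2 fold change of 2.50 (SE 0.15). Cd151, the tetraspanin that binds Itga3 and Itga6, rose by 0.69 (SE 0.10, adjusted p = 5.7e-04). Plec, the plectin that ties Itgb4 to keratin, was at 0.67 (adjusted p = 0.0149), which did not pass when Normal replicate 1 was left out (0.0518) nor when Normal replicate 2 was (0.0524). Dst, which encodes a further hemidesmosome linker, was at -0.68 (adjusted p = 0.0112), and at -0.19 with library totals alone, where it did not pass (0.389). Col17a1, the transmembrane collagen of hemidesmosomes, picked after its values were seen, had 2.03, 0.787 and 0.614 CPM in Yap-activated and 0.291, 0.903 and 0.158 CPM in Normal libraries and did not pass (1.28, adjusted p = 0.153). Without Normal replicate 2 it was among the 3 genes of this list called higher.

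Of 13 other basement membrane genes and laminin receptors 8 fell and 3 rose, at a median of -0.69. Col4a3 and Col4a4, collagen chains that assemble with each other, had 0.474, 0.310 and 0.446 CPM and 0.779, 0.739 and 1.15 CPM in Yap-activated libraries. In Normal libraries Col4a3 had 35.2, 34.7 and 60.7 CPM and Col4a4 25.3, 23.4 and 35.2 CPM. On the log2 scale Col4a3 fell by 6.73 (SE 0.33) and Col4a4 fell by 4.95 (SE 0.26). Bcam, a receptor that binds Lama5, had 180, 170 and 203 CPM in Yap-activated libraries and 21.7, 17.5 and 20 CPM in Normal libraries, and rose by 3.23 (SE 0.13, adjusted p = 1.63e-06). Agrn, the agrin gene, whose product binds laminins, had 1070, 788 and 915 CPM in Yap-activated and 272, 223 and 239 CPM in Normal libraries, and rose by 1.92 (SE 0.16). With library totals alone 5 genes of this list were lower.

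Of 12 RGD and other matrix ligands of integrins 6 rose and 3 fell, at a median of 0.71. Npnt, nephronectin, a ligand of Itga8, had 151, 168 and 177 CPM in Yap-activated and 27.1, 30.7 and 37.1 CPM in Normal libraries, and rose by 2.39 (SE 0.14), whereas Itga8 itself fell. Thbs1, thrombospondin, rose by 3.08 (SE 0.24) and Tnc, tenascin C, by 2.19 (SE 0.21). Fn1, fibronectin, the ligand of Itga5, had 298, 416 and 438 CPM in Yap-activated and 141, 197 and 199 CPM in Normal libraries, and rose by 1.10 (SE 0.20, adjusted p = 0.00191). Of the 8 tested cell-surface ligands of leukocyte integrins 2 rose, 2 fell and 4 did not pass, at a median of -0.04. That is 25% each way, against 29.8% higher and 29.7% lower over all genes tested. Icam1, the ligand of Itgal and Itgam, had 59.7, 52.0 and 51.8 CPM in Yap-activated and 3.23, 4.09 and 3.48 CPM in Normal libraries, and rose by 3.92 (SE 0.14, adjusted p = 1.03e-06). F11r, a junctional molecule that binds Itgal, rose by 1.04 (SE 0.13), and Icam2, an endothelial ligand, fell by 2.01 (SE 0.40). Cdh1, E-cadherin, the ligand of Itgae, had 1060, 1860 and 1630 CPM in Yap-activated and 965, 1230 and 1150 CPM in Normal libraries, at 0.44 (adjusted p = 0.124), and passed without Yap-activated replicate 1 (0.66, adjusted p = 0.0138).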

How the data were processed

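RNA was measured in 6 libraries of EDTA-released corpus epithelium, 3 Yap-activated and 3 Normal, made with a stranded poly(A) kit per the labels. The authors deposited whole-number read counts per gene symbol, without normalization. STAR 2.4.2a, DESeq2, GRCm38 and mm10 are named in the submitters' processing notes. For the counting program, strand setting and annotation, nothing is given in the sources used here. Counts were fitted with edgeR 4.0.16 in R 4.3.3 (filterByExpr with a minimum count of 10, TMM, robust quasi-likelihood F-test, no covariate), with Benjamini-Hochberg adjustment over all 14600 genes tested and a threshold of 0.05. Each SE was taken as the absolute log2 fold change over the root of its F statistic. Gene positions and merged exon lengths came from GENCODE mouse release M21 (GRCm38). Levels of different genes were compared only per kilobase, except that the most abundant gene of a list was picked by mean CPM and marker levels were summed as CPM. The precision of low genes is limited by counting, and the replicate spread is that of these libraries.

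The genes and lists were chosen with earlier results of these data known. Every integrin and laminin gene in the set is accounted for, and of each other list the 3 genes with the smallest p and the one with the highest mean CPM are named. One corpus marker of the list was not matched to a symbol in the table. On simulated data the test returned the simulated folds, and its share of false calls was above the threshold. The adjusted p-values, above all those near the threshold, are therefore less certain than they read. The simulation changed a small set of genes, as many up as down, whereas 59.5% of genes tested were called here. It therefore cannot show how well folds are returned in these data. Alternatives were DESeq2 size factors, library totals, upper quartile, 2 other filters, DESeq2 1.42.0, limma voom (limma 3.58.1), a replicate block, a test against a 2-fold change, leaving out each library, and, for shares, the longest transcript. No column of the table was left out. Replicates were not duplicates of each other: every pair of libraries of a group differed by far more than sampling noise.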

Additional observations from a re-analysis of the deposited data

How the results depend on the processing

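Of the 25 calls among integrin and laminin genes, 20 held in every alternative but the test against a 2-fold change (15 higher, 5 lower). The calls outside these 20 were Itgb5, Lamb1, Itga4, Itgal and Itga7, given with their values above. Of the 20, 16 passed the test against a 2-fold change too, and Itga6, Itgb1, Lamc1 and Itga1 did not. Against a 2-fold change 11 genes were higher and 5 lower, with 1 higher and 0 lower among the chains made by several cell types, 2 higher among leukocyte chains and 1 higher among stromal chains. With library totals alone 5 were lower in all, 0 of them chains made by several cell types, and 5 stromal chains were higher; with upper quartile scaling 5 were lower and 0 of these were chains made by several cell types. With voom 2 leukocyte chains were higher. Leaving out 1 library gave 15 to 20 higher and 5 to 8 lower, with 0 to 2 lower among the chains made by several cell types, 2 to 6 higher among leukocyte chains and 2 to 3 higher among stromal chains. The replicate block gave 15 higher and 7 lower, with 2 leukocyte chains higher (Itga4 at adjusted p = 0.0722 and Itgal at 0.0533 were lost, as was Itga7 at 0.108). Libraries with the same number had correlations of deviations from their group means of 0.0919, 0.0537 and 0.086, each library correlating best with its own number. Deviations within a group cancel out, so each library must correlate best with some library of the other group. These small values therefore cannot show a pairing, which the labels do not state.

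Among integrin and laminin levels, signs turned only at 4 genes that did not pass. Without 1 library, Lama1 ran from -0.19 (without Yap-activated replicate 3) to 0.679, Itgb7 from -0.39 to 0.406, Itga9 from -0.441 to 0.15 and Itgb3 from -0.017 (without Yap-activated replicate 3) to 0.375. Itgb7 was at -0.0592 with voom, and Itga9 at 0.44 with library totals alone. The share of Itga3 differed by -0.82 percentage points, by 2.09 over the longest transcript and by -2.48 to 1.04 without a library. The cause of these changes was not tested. Outside the set, the sign of Pf4 turned with voom (-0.14), the replicate block (-0.09) and without some libraries, and Gp1ba was at 0.09 with library totals alone. Low genes such as Itgad, Itgb8, Lamc3 and Itga8 rest on few reads.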
